A study of Homo sapiens with 3 samples.

Results

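The 10 genes described here encode the 5 subunits of the transcription factor NF-kB (NFKB1, NFKB2, RELA, RELB and REL) and 5 proteins that restrain or modulate it (NFKBIA, NFKBIB, NFKBIE, NFKBIZ and TNFAIP3). They were chosen by gene symbol from a table of 61550 genes, and all 10 were found. HK1 cells, an established nasopharyngeal carcinoma (NPC) line, were incubated with CD8+ T cells that had been activated, and were then profiled by RNA-seq. There were 3 libraries, 1 from wild-type (WT) cells and 2 from cells labelled FLI1 knockout (FLI1-KO), which carried the guide sgFLI1-1 or sgFLI1-2. FLI1 is an ETS-family transcription factor, and the comparison asked which tumor-cell transcripts differed when it was targeted. FLI1 itself had 125 counts (WT), 11 in the sgFLI1-1-labelled library and 109 in the sgFLI1-2-labelled library (log2 fold change -1.09, SE 0.84, edgeR adjusted p = 0.515), so its mRNA does not check the label of the latter, and every direction given for that library rests on the label. The table names its KO columns by number alone, and they were matched to the guides by that number. All groups had met T cells, so the libraries do not show which genes the T cells had induced. Neither the labels nor the methods say whether a KO line was a clone or a pool, or whether the libraries came from separate cultures, and p-values measure only the spread between these libraries.

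NF-kB works as a dimer of its subunits. In resting cells the IkB proteins hold dimers in the cytoplasm, and signals such as TNF or IL-1 activate the IKK kinase, which marks IkB for destruction and frees the dimers. NFKB1 and NFKB2 are made as long precursors that are cut to the DNA-binding forms p50 and p52, whereas RELA, RELB and REL carry the transactivation domains. Several genes of the circuit are themselves NF-kB targets, so that the pathway rebuilds its own brake. In epithelial tumor cells the pathway controls chemokines, adhesion molecules and survival genes.

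To show the sequence at which such feedback is thought to be read, 3 RefSeq promoters (GRCh38.p14) follow, each covering the 250 bases before the RefSeq transcription start, 5′ to 3′ on the strand of the gene. Capitals mark matches to the consensus kB site on either strand. NFKBIA is shown as the classical feedback gene, and TNFAIP3 and RELA as the 2 members whose unadjusted p was under 0.05. The windows are chr14:35404750-35404999 (minus strand) for NFKBIA, chr6:137867009-137867258 (plus strand) for TNFAIP3 and chr11:65663858-65664107 (minus strand) for RELA.
NFKBIA: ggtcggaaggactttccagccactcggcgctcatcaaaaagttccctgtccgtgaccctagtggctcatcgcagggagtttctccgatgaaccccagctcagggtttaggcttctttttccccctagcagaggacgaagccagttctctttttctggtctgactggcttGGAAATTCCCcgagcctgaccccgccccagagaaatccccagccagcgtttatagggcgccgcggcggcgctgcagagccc
TNFAIP3: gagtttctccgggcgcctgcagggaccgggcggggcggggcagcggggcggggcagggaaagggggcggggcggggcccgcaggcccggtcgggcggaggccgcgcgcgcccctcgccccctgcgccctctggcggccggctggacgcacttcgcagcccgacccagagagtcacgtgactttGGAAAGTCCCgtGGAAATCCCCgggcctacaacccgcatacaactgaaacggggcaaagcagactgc
RELA: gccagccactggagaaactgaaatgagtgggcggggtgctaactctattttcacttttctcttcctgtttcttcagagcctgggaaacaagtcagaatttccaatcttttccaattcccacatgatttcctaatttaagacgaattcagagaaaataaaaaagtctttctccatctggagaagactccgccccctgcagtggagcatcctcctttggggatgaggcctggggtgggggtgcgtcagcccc

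NFKBIA held 1 match to the consensus kB site (GGGAATTTCC on the minus strand of the gene, 81 to 72 bases before the start), TNFAIP3 held 2 (GGGACTTTCC, 67 to 58 bases before it, and GGGGATTTCC, 55 to 46 bases before it, both on the minus strand) and RELA held none. Of the 8 members with a promoter in the RefSeq table, 5 had a match: NFKB1, REL, NFKBIA, NFKBIZ and TNFAIP3. The share among all 35116 promoters of this length was 9.96%. A narrower motif, GGG and any 2 bases followed by TTTCC, which overlaps the consensus, was searched on both strands and found in the same 5 members and in 1.73% of all promoters. The exact string CCGGAAGT, 1 form of the ETS motif, was searched on both strands. It was in no member's window and in 3.42% of all promoters. Other forms of the motif were not searched, so ETS sites in these windows cannot be called absent. The STAT-type motif TTCNNNGAA was in RELA alone (TTCAGAGAA, 106 to 98 bases before the start), against 6.57% of all promoters. The RELA window starts from a RefSeq site 767 bases away from the gene start in the deposited table, whereas for the other 7 members the starts were at most 53 bases apart. A match is a description of letters, and none was tied to binding in these data.

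In bulk RNA, fewer cells of a type and less RNA per cell cannot be told apart. Of 20 T cell markers 15 were at 0 counts in every library, among them CD3D, CD3E, CD8A and GZMB, and the summed counts of all 20 were 50 in WT, 6 in the sgFLI1-1-labelled library and 32 in the sgFLI1-2-labelled library. The epithelial keratin genes KRT8 (936, 1020 and 1029 FPKM in the same order) and KRT18 (628, 748 and 797) were abundant. Of the 11 epithelial markers, KRT17 (996, 790 and 641 counts), SFN (2322, 1778 and 1659) and DSP (2055, 2306 and 2446) were also present, EPCAM had 183, 160 and 93 counts, KRT14, KRT6A and CDH1 had at most 44, and KRT5 and TP63 had at most 8. Library totals ran from 22172158 to 23904587 counts.

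The circuit was well expressed in HK1 cells, with NFKBIA, which encodes IkB alpha, at the top. Levels are given in FPKM, fragments scaled to transcript length and library size, which allows genes to be compared. NFKBIA stood at 86.8 FPKM in WT, 118 in the sgFLI1-1-labelled library and 103 in the sgFLI1-2-labelled library, and ranked first of the 10 in each library. In WT it was followed by RELA (39.8), NFKB2 (34.7), TNFAIP3 (25.6), NFKB1 (24.8), NFKBIB (21.1), RELB (16.3) and NFKBIE (12.3). These 8 members exceeded 10 FPKM in every library. NFKBIZ (1.76) and REL (0.86) were low, and REL is the subunit best known from lymphocytes. TNFAIP3 and NFKB1 were close neighbors in this order, and with 1 WT library the spread behind their order in WT is unknown. In both KO libraries NFKB2 and TNFAIP3 stood above RELA.

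**Figure D1:**
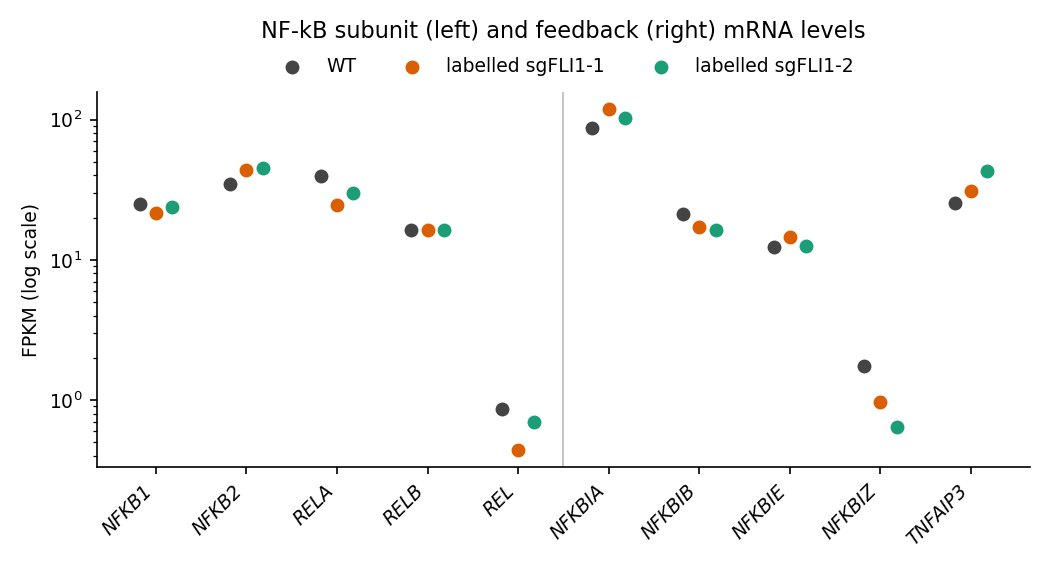
FPKM (log axis) of the 5 NF-kB subunit genes (left of the line) and the 5 inhibitor and feedback genes (right of it), 1 point per library. NFKBIA is the highest in each library, REL and NFKBIZ lie under 2 FPKM, and RELA is lower and NFKB2 and TNFAIP3 higher in both KO libraries than in WT.

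RELA made up 34.2% of the summed subunit FPKM in WT, 23.2% in the sgFLI1-1-labelled library and 25.8% in the sgFLI1-2-labelled library. The share of NFKB2 was 29.8%, 41% and 38.7% in the same order. NFKB1 (21.3%, 20.1% and 20.7%) and RELB (14%, 15.2% and 14.2%) kept nearly level shares, and REL stayed under 1%. The summed subunit level was 116 FPKM in WT, 107 in the sgFLI1-1-labelled library and 116 in the sgFLI1-2-labelled library, so the makeup differed more than the total. The ratio of NFKBIA to RELA, singled out after the values were seen, was 2.18 in WT, 4.77 in the sgFLI1-1-labelled library and 3.45 in the sgFLI1-2-labelled library. These shares and ratios are of mRNA and were not tested.

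**Figure D2:**
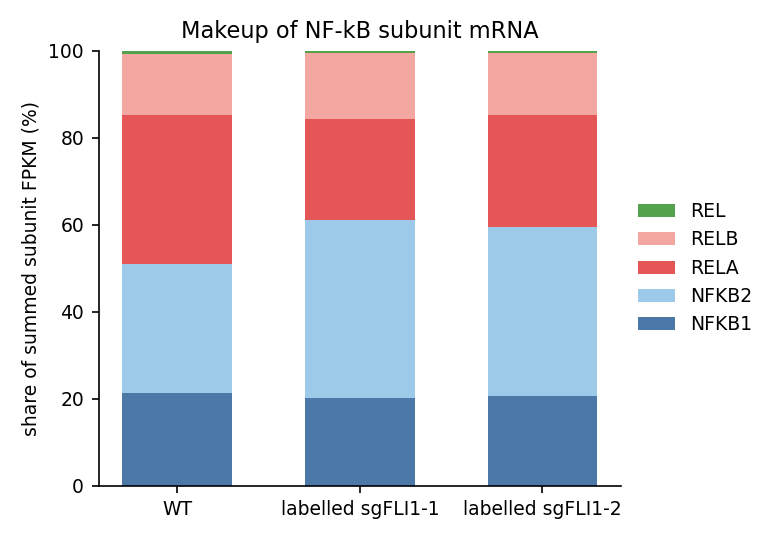
Share (%) of each subunit gene in the summed FPKM of the 5 NF-kB subunit genes, 1 stacked bar per library. The RELA band is wider in WT (34.2%) than in the KO libraries (23.2% and 25.8%), and the NFKB2 band is narrower in WT (29.8%) than in them (41% and 38.7%).

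No member passed the test between the KO libraries and WT. By edgeR's quasi-likelihood test, with a call set at a 2-fold change or more and an adjusted p under 0.05, 0 of 10 members were called, where 4.78% of the 15483 tested genes were (740 genes). For only 10 genes, 0 calls lie near that share, so the 0 does not set the members apart. By the adjusted p alone 0 members passed, beside 6.88% of tested genes. At an unadjusted p under 0.05 the count was 2 of 10 members, beside 20.8% of all tested genes, so the members sat near the background. DESeq2 also called 0 members (all tested genes: 3.69%) and had 2 at an unadjusted p under 0.05 (all tested genes: 13.3%). The median log2 fold change of the members was -0.06, and that of all tested genes was 0.00098. For 8 of 10 members the 95% interval of the fold change lay within 2-fold either way (all tested genes: 51.8%), and the exceptions were the low genes REL and NFKBIZ. Intervals narrow as counts grow. These 8 had at least 668 counts in every library, and the tested genes, which include scarcer ones, were not matched for counts. WT lay outside the range of both KO libraries in CPM (counts scaled to library size) for 10 of 10 members, as it did for 79.2% of tested genes. Both KO libraries were above WT for 4 members (tested genes: 38.3%) and below it for 6 (40.9%). With 1 residual degree of freedom, the test took the lone WT library to vary like the KO libraries.

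**Figure D3:**
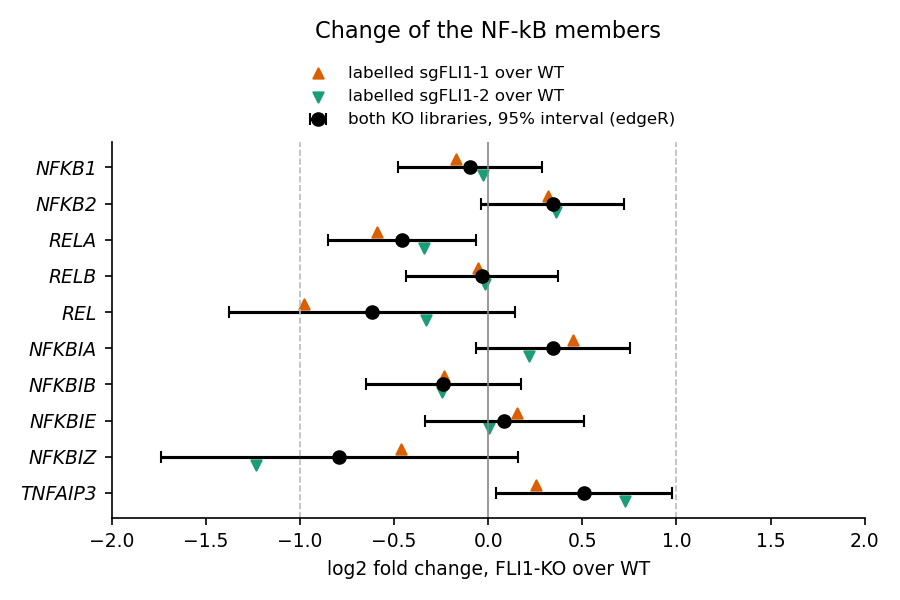
Log2 fold change of each member in FLI1-KO over WT, with black points for both KO libraries together, bars for the 95% interval from edgeR, and triangles for each KO library alone. Dashed lines mark 2-fold; the bars of REL and NFKBIZ alone pass them, and those of RELA and TNFAIP3 leave out 0 before adjustment.

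Among the subunits RELA stood furthest from WT of the well-counted genes. RELA (ENSG00000173039, chromosome 11, 65653599 to 65663090, GRCh38) encodes p65, the main transactivating subunit. It had 2487 counts (WT), 1781 in the sgFLI1-1-labelled library and 1985 in the sgFLI1-2-labelled library. Per library size this was 66.4% and 79% of WT, so both KO libraries lay below it. The log2 fold change was -0.46 (SE 0.18, interval -0.85 to -0.06, edgeR adjusted p = 0.175), which did not pass. Its FPKM was 39.8 in WT and averaged 27.3 ± 3.62 across the KO pair (SD, n = 2).

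NFKB2 (ENSG00000077150, chromosome 10, 102394110 to 102402524) encodes p100, the precursor of p52 that serves the non-canonical pathway. Its counts were 2583 in WT, 3472 in the sgFLI1-1-labelled library and 3350 in the sgFLI1-2-labelled library. The KO libraries stood close together, at 125% and 128% of WT per library size. The log2 fold change of 0.34 (SE 0.17, interval -0.04 to 0.72, edgeR adjusted p = 0.294) did not pass the test.

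NFKB1 and RELB were nearly level. NFKB1 (ENSG00000109320, chromosome 4, 102501331 to 102617302), the p105 and p50 gene, had 2328, 2233 and 2304 counts in WT and the sgFLI1-1-labelled and sgFLI1-2-labelled libraries, a log2 fold change of -0.10 (interval -0.48 to 0.29, edgeR adjusted p = 0.805). RELB (ENSG00000104856, chromosome 19, 45001449 to 45038198), the usual partner of p52, had 904, 939 and 902 counts, a log2 fold change of -0.03 (interval -0.44 to 0.37, edgeR adjusted p = 0.942). Both intervals lay within 2-fold either way.

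REL (ENSG00000162924, chromosome 2, 60881521 to 60931612) was the scarcest subunit mRNA in all 3 libraries. It had 236 counts (WT), 129 in the sgFLI1-1-labelled library and 190 in the sgFLI1-2-labelled library. Both KO libraries were below WT, at 50.7% and 79.7% of it per library size. The log2 fold change was -0.62 (SE 0.34, interval -1.37 to 0.14, edgeR adjusted p = 0.343). The interval held both no change and a 2-fold decrease.

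The feedback genes went in both directions, and none passed. NFKBIA (ENSG00000100906, chromosome 14, 35401513 to 35404749) had 3084 counts (WT), 4550 in the sgFLI1-1-labelled library and 3625 in the sgFLI1-2-labelled library. Both KO libraries were above WT, at 137% and 116% of it per library size, with a log2 fold change of 0.34 (SE 0.18, interval -0.06 to 0.75, edgeR adjusted p = 0.327). TNFAIP3 (ENSG00000118503, chromosome 6, 137867214 to 137883312) encodes A20, a ubiquitin-editing enzyme that shuts off signaling upstream of IKK. Its counts were 2834 in WT, 3642 in the sgFLI1-1-labelled library and 4743 in the sgFLI1-2-labelled library. Both KO libraries were again above WT, though by unequal amounts (119% and 166% of WT per library size). The log2 fold change was 0.51 (SE 0.21, interval 0.04 to 0.98, edgeR adjusted p = 0.2).

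The slower IkB genes differed less. NFKBIB (ENSG00000104825, chromosome 19, 38899700 to 38908893), which encodes IkB beta, had 784, 718 and 668 counts in WT and the sgFLI1-1-labelled and sgFLI1-2-labelled libraries. Its log2 fold change was -0.24 (interval -0.65 to 0.17, edgeR adjusted p = 0.521). NFKBIE (ENSG00000146232, chromosome 6, 44258166 to 44265788), the IkB epsilon gene, had 749, 899 and 760 counts and a log2 fold change of 0.09 (interval -0.34 to 0.51, edgeR adjusted p = 0.846). The KO libraries agreed for NFKBIB (84.9% and 84.3% of WT per library size), and for NFKBIE the sgFLI1-2-labelled library stood at 100.4% of WT.

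NFKBIZ (ENSG00000144802, chromosome 3, 101827991 to 101861022) had the largest fold change among the members and the fewest counts. It encodes IkB zeta, a nuclear co-regulator that switches on a subset of NF-kB targets. Counts were 128 in WT, 100 in the sgFLI1-1-labelled library and 55 in the sgFLI1-2-labelled library. Both KO libraries lay below WT (72.5% and 42.5% of it per library size), and the log2 fold change was -0.79 (SE 0.43, interval -1.74 to 0.16, edgeR adjusted p = 0.332). In FPKM the KO libraries stood at 55.4% and 36.2% of WT. The number of counts per FPKM unit in the KO libraries was 1.41 and 1.19 times that in WT for NFKBIZ, whereas across the other 9 members it was between 0.988 and 1.15 times. The deposited measures thus place the sgFLI1-1-labelled library at different distances from WT.

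The KO libraries also differed from each other. For 7 of 10 members the 95% exact binomial interval of the ratio between the sgFLI1-1-labelled and sgFLI1-2-labelled libraries, which covers counting error only, left out 0, and so it did for 47.6% of tested genes. These intervals also narrow as counts grow, and the tested genes were not matched to the members for counts. TNFAIP3 was lower in the sgFLI1-1-labelled library than in the sgFLI1-2-labelled library (log2 CPM ratio -0.47, interval -0.54 to -0.41), as were REL (-0.65, interval -0.99 to -0.32) and RELA (-0.25, interval -0.34 to -0.16). NFKBIZ (0.77, interval 0.28 to 1.27) and NFKBIA (0.23, interval 0.17 to 0.30) were higher in it. NFKB2, RELB and NFKBIB did not differ beyond counting error. No replicate of a guide was there to test these differences.

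Reads in the shared part of overlapping genes can be assigned to either gene on the same strand, and to either gene on opposite strands if the counting ignored strand, which the sources used here do not state. REL overlaps a long noncoding RNA (ENSG00000267520) with 33, 162 and 73 counts in WT and the sgFLI1-1-labelled and sgFLI1-2-labelled libraries, an order opposite to that of REL. NFKBIZ overlaps NXPE3 (919, 1375 and 1398 counts, on the same strand), and NFKBIB overlaps SIRT2 (409, 448 and 425, on the opposite strand). RELA and TNFAIP3 overlap noncoding genes with at most 54 counts. These are few beside the members' own counts, at least 1781 for RELA and 2834 for TNFAIP3 in every library. REL, NFKBIZ and NFKBIB are less certain than NFKB1, NFKB2, RELB, NFKBIA and NFKBIE, which overlapped no other gene of the table. Overlap was judged by whole gene spans, so a shared counted sequence was not shown for any member.

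Genes near TNFAIP3 were, by their median, also higher in both KO libraries, but so were those near some other members. The 36 tested genes within 5 Mb of TNFAIP3 had a median log2 CPM ratio of 0.41 in the sgFLI1-1-labelled library and 0.45 in the sgFLI1-2-labelled library, and the ratios of TNFAIP3 itself were 0.25 and 0.73. The 29 genes around NFKBIZ had medians of 0.29 and 0.20, the opposite sign to NFKBIZ (-0.46 and -1.23), and the 247 genes around RELA had -0.12 and -0.04 (RELA: -0.59 and -0.34). The genes around NFKB1 had medians of 0.24 and 0.28, whereas NFKB1 itself stood at -0.17 and -0.03. Around NFKB2 the medians were 0.13 and 0.03, and around NFKBIA 0.06 and -0.04. With a 2 Mb window the medians were 0.34 and 0.44 around TNFAIP3 and 0.47 and 0.29 around NFKB1. The first of those around NFKB2 turned to -0.04. The part of the surroundings in the members' values was not tested.

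Upstream of NF-kB, 4 genes fell and none rose among 50 tested of 55 on lists of other IkB, IKK, receptor and ubiquitin genes (background 2.95% lower and 1.83% higher). The lists were chosen with earlier results of these data known, so the counts are not independent of them. MYD88, an adaptor of the IL-1 receptor and of several but not all Toll-like receptors, fell from 1544 counts to 589 and 558 in the sgFLI1-1-labelled and sgFLI1-2-labelled libraries (log2 fold change -1.49, SE 0.18, edgeR adjusted p = 0.00056). TLR3, the receptor for double-stranded RNA, fell from 647 counts to 319 and 238 (-1.28, SE 0.23). RBCK1 (HOIL-1), a subunit of the linear ubiquitin ligase, fell from 3045 counts to 1644 and 1502 (-1.01, SE 0.17, 2.02-fold), just past the fold threshold. CD40, a TNF-receptor family member, was at 29 counts in WT and at 0 in either KO library, which is at least 9.77-fold lower with a floor of 3 counts per library, and it has no adjusted p from DESeq2. Without the filter on low counts, and with limma, 0 of these genes were called.

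Of 12 IKK and upstream kinase genes 0 were called (all tested genes: 4.78%), and 3 had an unadjusted p under 0.05 (all tested genes: 20.8%). On a list this short, 0 calls lie near the share over all tested genes. The log2 fold changes of the IKK genes were 0.44 for CHUK (edgeR adjusted p = 0.268), -0.06 for IKBKB (0.906) and -0.24 for IKBKG (0.531). MAP3K14, which encodes the NIK kinase of the non-canonical pathway, was at 5999 counts in WT against 4247 (sgFLI1-1-labelled) and 4653 (sgFLI1-2-labelled) (-0.49, edgeR adjusted p = 0.132), and TAB2, an adaptor of the TAK1 kinase, stood at 0.38 (adjusted p = 0.244). TANK, a TRAF-binding protein, passed the adjusted p but not the fold threshold (0.88, SE 0.21, edgeR adjusted p = 0.0321). Of the 5 other IkB-family and subunit-binding genes 0 were called and 0 had an unadjusted p under 0.05, with BCL3, a nuclear IkB, at -0.41 (adjusted p = 0.242) and NKRF at 0.35 (adjusted p = 0.297). The A20 partner gene TNIP1 was at -0.58 (SE 0.17, edgeR adjusted p = 0.0796), opposite in sign to TNFAIP3, and TAX1BP1 was at -0.42 (adjusted p = 0.182). Among receptor and adaptor genes the uncalled genes with the highest mean FPKM over the 3 libraries were TNFRSF12A (-0.14) and IRAK1 (0.02).

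Some target genes passed the test, in opposite directions. Of 30 target genes other than the members 23 were tested, 4 fell and 2 rose (all tested genes: 2.95% lower and 1.83% higher), and their median log2 fold change was -0.31. This list too was chosen with earlier results of these data known, so its counts are a description and no independent sign of enrichment. The adhesion molecule gene ICAM1 fell 7.5-fold, from 4105 counts in WT to 623 and 520 in the sgFLI1-1-labelled and sgFLI1-2-labelled libraries (-2.91, SE 0.17, edgeR adjusted p = 4.49e-06). The cytokine gene IL32 fell by 3.03 on the log2 scale (SE 0.17). The chemokine gene CXCL2 (872, 282 and 274 counts) fell by 1.71, and SOD2, the mitochondrial superoxide dismutase gene (10214, 4745 and 3748 counts), fell by 1.33. By contrast CXCL8 rose by 1.99 on the log2 scale (SE 0.20) and CCL20, at 12, 60 and 81 counts, by 2.49 (SE 0.59), the latter not called by DESeq2 (adjusted p = 0.0932), with a minimum of 50 counts (0.0633), without the filter (0.282) or with limma (0.182). With limma 0 target genes were called, and without the filter 2 were lower and 0 higher. IER3, an early response gene, had 4655, 10108 and 8735 counts and passed the adjusted p (0.00663) with a log2 fold change of 0.96, under the fold threshold. CXCL2, SOD2 and TANK were named after their values were seen. BIRC3, TRAF1 and TNIP1 stand on 2 of the lists.

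**Figure D4:**
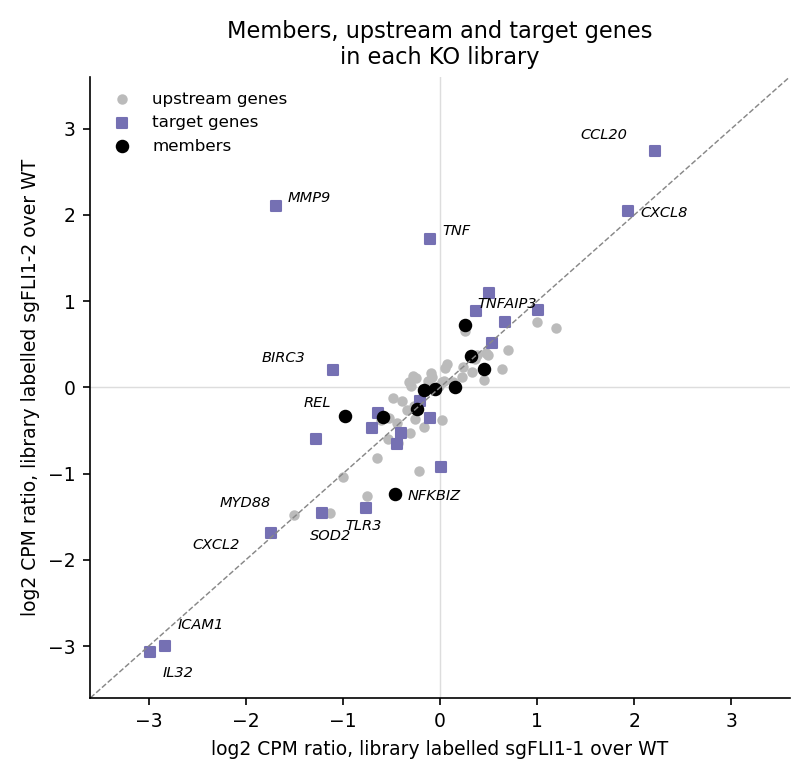
Log2 CPM ratio to WT in the sgFLI1-1-labelled library (x axis) and in the sgFLI1-2-labelled library (y axis) for the 10 members (black), 46 upstream genes (grey) and 23 target genes (squares, also for genes on both lists); the dashed line marks equal values, and CD40, at 0 in both KO libraries, cannot be drawn. Most members lie near 0, and REL, NFKBIZ and TNFAIP3 lie furthest out among them, off the line. Of the target genes, IL32, ICAM1, CXCL8 and CCL20 lie far out near the line. MMP9 and TNF, far from the line, had at most 13 counts in any library.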

How the data were processed

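RNA-seq of 3 HK1 libraries was analysed, 1 WT and 2 FLI1-KO by the genotype label; table columns KO1 and KO2 were matched to sgFLI1-1 and sgFLI1-2 by number alone. Per the labels and methods, the authors used fastp (0.23.2) for trimming, HISAT2 (2.0.4) for alignment to GRCh38 and StringTie (1.3.4d) for assembly. The authors deposited whole-number counts per gene, by a tool not given in the sources used here, and FPKM. The total counts were 22172158, 23904587 and 22409203. Counts were tested with edgeR (4.0.16, R 4.3.3; TMM, filterByExpr with a minimum of 10, 15483 genes, two-sided, Benjamini-Hochberg), KO against WT. SE was derived from the F statistic and the fold change, and 95% intervals use the moderated degrees of freedom. The fit was checked on simulated counts. CPM ratios carry exact binomial (Clopper-Pearson) intervals, and these and the 3-count floor cover counting error only. All 123 list symbols were found. Alternatives tried were testing without the filter, a minimum of 50 counts, median-of-ratios scaling, quantile normalization with limma (3.58.1), a pseudocount of 0.1, DESeq2 (1.42.0), adjusted p alone, CPM, a 2 Mb window and leaving out each KO library. The members and lists were chosen with earlier results of these data known. Named were all members, FLI1, up to 4 called genes of each list and up to 2 uncalled genes of highest mean FPKM; the genes most like a called member could not be named, as none was called. Promoter sequences are from RefSeq (GRCh38.p14), with entries for 8 members. A planned protein motif search was not run.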

Additional observations from a re-analysis of the deposited data

How the results depend on the processing

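The count of 0 members called, higher or lower, held under every alternative fit (no filter, minimum of 50 counts, median-of-ratios scaling, quantile normalization with limma, DESeq2, no fold threshold). The lowest adjusted p of any member over these was 0.161, and each member kept its direction in 8 of 8 alternatives. That agreement was partly fixed in advance. The run with no fold threshold reuses the main fit, and WT lay outside the range of both KO libraries for 10 of 10 members. By FPKM, RELB was at 16.4 in the sgFLI1-2-labelled library and 16.3 in WT, opposite to its negative fold change. With 1 KO library left out there was no test, and members at least 2-fold below WT numbered 0 to 1, the 1 being NFKBIZ in the sgFLI1-2-labelled library. Over all genes, 283 were called higher and 457 lower; without the filter these were 3 and 38, and with limma 0 and 0 (2516 genes at an unadjusted p under 0.05). In single KO libraries 1050 to 1152 genes were at least 2-fold higher and 1389 to 1801 lower. Of upstream genes, 4 were lower and 0 higher; without the filter and with limma 0 were lower, and with no fold threshold 1 was higher (0 to 1 in single libraries). Of target genes, 2 were higher and 4 lower. The higher count was 0 without the filter, 1 with the minimum of 50 counts, 0 with limma, 1 with DESeq2 and 3 to 5 in single libraries; the lower count was 2 without the filter, 0 with limma and 5 to 7 in single libraries. The cause of these changes was not tested. No paired analysis was possible, because there was 1 WT library and no label pairs it with a KO library. REL and NFKBIZ, at 55 to 236 counts, had the widest intervals among the members, and both differed between the KO libraries beyond counting error. With a 2 Mb window the median of the surrounding genes changed sign for NFKB2 in the sgFLI1-1-labelled library (0.13 to -0.04) and for RELB in the sgFLI1-2-labelled library (-0.12 to 0.04), and kept its sign for the other members in both libraries. The WT group had 1 library, so its own variation is unknown.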

Other observations

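BIRC3, which encodes the ubiquitin ligase cIAP2 and is itself an NF-kB target, differed widely between the KO libraries, as did IL6, and both were singled out after their values were seen. BIRC3 had 1383 counts (WT), 693 in the sgFLI1-1-labelled library and 1608 in the sgFLI1-2-labelled library. The log2 CPM ratio between the sgFLI1-1-labelled and sgFLI1-2-labelled libraries was -1.31 (95% exact binomial interval -1.44 to -1.18, counting error only), and the comparison of both with WT did not pass (-0.31, SE 0.37, edgeR adjusted p = 0.693). IL6, an inflammatory cytokine gene, had 530 counts (WT), 577 in the sgFLI1-1-labelled library and 283 in the sgFLI1-2-labelled library, and its ratio between the KO libraries had the opposite sign (0.93, interval 0.73 to 1.14). BIRC3 lies on chromosome 11 (102317450 to 102339403, GRCh38), as FLI1 does (128686535 to 128813267). The gene BIRC2, at 102347211 to 102378670, had a log2 CPM ratio between the KO libraries of -0.38 (interval -0.47 to -0.29). A part of chromosomal position in the BIRC3 ratio was not tested.

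Among the 8 members with a promoter in the RefSeq table, the presence of a consensus kB match did not sort the directions. Of the 5 with a match 2 had a positive log2 fold change (NFKBIA and TNFAIP3) and 3 a negative one, and of the 3 without, 1 was positive (NFKB2) and 2 were negative. RELA is among those without, but its window starts from a RefSeq site 767 bases away from the deposited gene start. No test was run on so few genes.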
